A study of Mus musculus with 8 samples.

Results

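The complement genes described here are 9 components, regulators and receptors of the complement cascade: Hc, C3, C4b, Cfb, Cfi, Cfd, Cd55, C5ar1 and C3ar1. They were chosen by name with the measured genotype difference of Hc already known, so the differences below are a description and carry no p-value for these genes. Each gene was read from the probe set annotated to it alone, and a gene with several would have been read from its brightest probe set over the 8 arrays. Of the 9 genes, 7 had such a probe set, 1 each, among 22180 genes in all. C3 and Cfd had none and were not analysed here. Of those 7, 6 passed the level filter (a mean above 5.18, the median of all probe sets), and Cfi did not.

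The arrays measured RNA of mouse lung samples that the labels call club cells, the secretory cells that line the small airways. Atgl KO/cTg mice lack adipose triglyceride lipase (Atgl, now Pnpla2), which starts the release of fatty acids from stored fat, and wt/cTg mice have it. Both groups carry cTg, which the labels do not expand, and no strain is named. Each array held the RNA of a pool of 3 or 4 untreated mice of 38 to 48 weeks, with 4 Atgl KO/cTg pools (16 mice, 38 to 46 weeks) and 4 wt/cTg pools (14 mice, 41 to 48 weeks). The replicate numbers used here follow accession order and only name a pool. The design text speaks of 4 sets of knockout and control samples, but the labels do not state which pools form a set, so no pairing was used.

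Complement is a chain of plasma and surface proteins that tags and lyses microbes. The classical pathway starts at C1q and the lectin pathway at collectins and ficolins, and both cleave C4 and C2. The alternative pathway runs through C3, factor B and factor D. All pathways meet at C3 and then at C5, which splits into C5a, an attractant read by C5ar1, and C5b, which gathers C6 to C9 into the membrane attack complex. Regulators such as factor I and Cd55 stop the chain on the body's own cells. The liver makes most circulating complement, and lung epithelium and macrophages also make components locally. Hc, for hemolytic complement, is the mouse name of the C5 gene.

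The sequence before the start site of Hc is shown because Hc is the member that differed most, beside those of Lamp3 and Slc34a2, 2 alveolar type 2 cell genes with a like profile over the pools. Each run is the 250 bases before the start site in the RefSeq table (GRCm38.p6), 5′ to 3′ on the gene's strand, with capitals for a searched motif. Hc lies at chr2:35061413-35061662 on the minus strand, Lamp3 at chr16:19706366-19706615 on the minus strand and Slc34a2 at chr5:53049103-53049352 on the plus strand. RefSeq's span of Hc reaches further upstream than this start site.
Hc: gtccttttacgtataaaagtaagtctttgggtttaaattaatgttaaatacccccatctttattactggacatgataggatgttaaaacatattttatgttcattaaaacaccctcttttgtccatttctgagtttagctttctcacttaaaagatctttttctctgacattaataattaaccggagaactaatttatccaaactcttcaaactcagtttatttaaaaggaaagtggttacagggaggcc
Lamp3: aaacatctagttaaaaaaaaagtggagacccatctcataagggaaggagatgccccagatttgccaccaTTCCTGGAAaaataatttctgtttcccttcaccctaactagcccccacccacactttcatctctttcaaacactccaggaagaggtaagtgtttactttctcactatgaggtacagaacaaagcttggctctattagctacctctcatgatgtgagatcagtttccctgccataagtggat
Slc34a2: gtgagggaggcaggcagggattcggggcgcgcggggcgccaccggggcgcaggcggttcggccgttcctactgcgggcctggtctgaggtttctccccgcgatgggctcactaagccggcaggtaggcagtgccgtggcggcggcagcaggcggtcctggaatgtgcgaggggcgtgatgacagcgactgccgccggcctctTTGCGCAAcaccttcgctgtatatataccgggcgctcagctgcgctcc

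Motifs were searched on both strands by their letters, with N for any base: TTGCNNAA for C/EBP, CTCAAG for NKX2-1, CCGGAAG for ETS factors and TTCNNNGAA for STAT. The Hc window held none of them. Lamp3 held 1 STAT match, and Slc34a2 held the C/EBP letters on both strands at 1 place. Over 32851 windows of this length, 9.56% held the C/EBP letters, 13.3% NKX2-1, 6.91% ETS and 7.02% STAT. The table gave windows for 6 of the 9 complement genes, and those of C5ar1, C3ar1 and Cd55 also held no match. That of C3 held 1 C/EBP match and that of Cfd 1 NKX2-1 match. The Hc window was 31.2% G and C, and 97.8% of the windows had more. A match is only a match of letters.

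The libraries were read as deposited, on the log2 scale. Array medians ran from 5.12 to 5.24 and correlations between arrays from 0.965 to 0.985. Pnpla2 was lower in each Atgl KO/cTg pool (6.70 to 7.16) than in each wt/cTg pool (8.62 to 8.86), as the labels have it. The club cell markers Scgb1a1, Cyp2f2 and Scgb3a2 read high in every pool (11.21 to 13.03), where the array maxima were 13.38 to 13.54. Whether differences are compressed for markers this near the top was not tested. Sftpc, the defining marker of alveolar type 2 cells, also read high, at 12.50 to 13.03. Msln of mesothelial cells and S100a8 of neutrophils had means of 10.69 and 10.44, while Alb of hepatocytes lay below the filter at 4.22. The samples thus held RNA of further cell types, and no value here can be assigned to club cells alone. Markers of these cell types are given below beside the results they move with. In pooled RNA, fewer cells of a type cannot be told apart from less RNA per cell.

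Hc, the C5 gene, read lower in Atgl KO/cTg than in wt/cTg, while the 5 other tested members lay close to 0. C3 and Cfd had no probe set of their own, and Cfi lay below the filter. The log2 signal of Hc was 8.37, 8.64, 8.25 and 8.35 in Atgl KO/cTg replicates 1 to 4, and 9.28, 10.10, 9.90 and 10.22 in wt/cTg replicates 1 to 4. The groups did not overlap, and 0.64 log2 units lay between the highest Atgl KO/cTg and the lowest wt/cTg pool. The group means were 8.40 ± 0.17 and 9.88 ± 0.42 (SD, n = 4). The log2 difference, Atgl KO/cTg minus wt/cTg, was -1.47 (SE 0.18), a linear ratio of 0.361. Among the 13112 genes tested, 3 had a lower difference. The spread was wider in wt/cTg, where replicate 1 lay at -0.59 from the group mean.

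**Figure D1:**
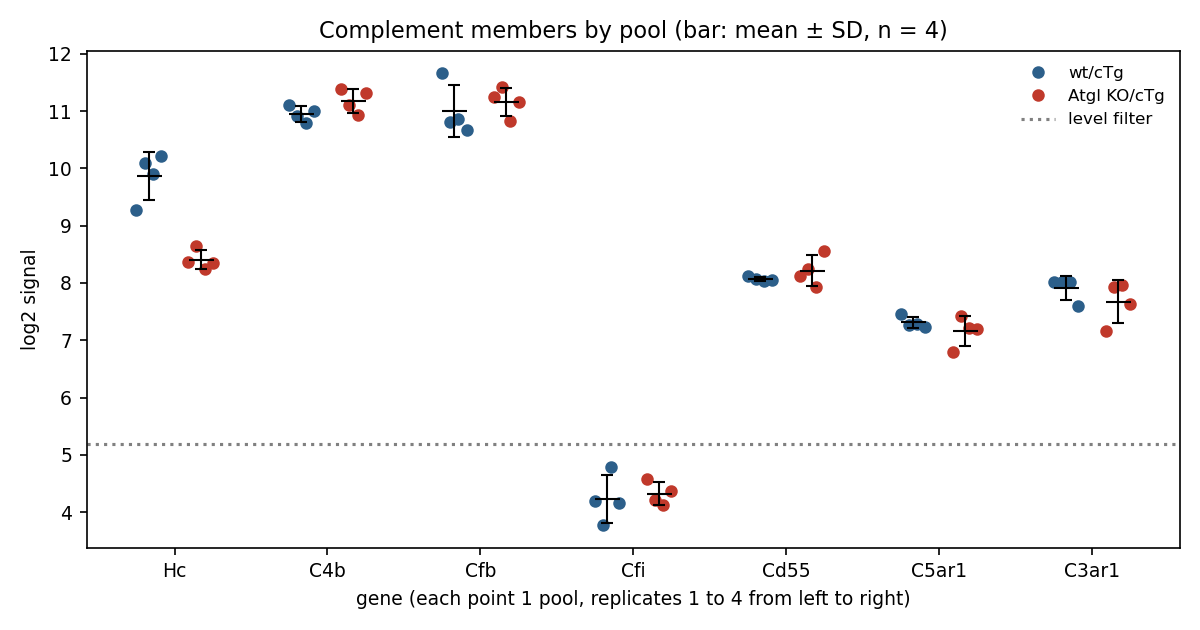
Log2 signal (vertical axis) of the 7 measured complement genes, 1 point per pool, wt/cTg in blue and Atgl KO/cTg in red, with mean ± SD (n = 4) and the level filter as a dotted line. The Hc groups stand apart (8.25 to 8.64 against 9.28 to 10.22), those of the other 6 genes overlap, and Cfi lies below the filter.

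Hc was the 1 member among the 13 of 13112 genes (0.0991%) past the limma threshold of an adjusted p under 0.05. It was also the 1 member with groups that did not overlap, against 4.35% of all genes. Since Hc was known when the members were chosen, nothing is read from either count. The size of the difference moved little when single pools were left out, from -1.67 without wt/cTg replicate 1 to -1.35 without wt/cTg replicate 4. The call was less steady. Of the 8 fits that each left out 1 pool, Hc passed in 2, those lacking Atgl KO/cTg replicate 2 (18 genes called) or wt/cTg replicate 1 (25 genes called). In the other 6 fits, which lacked Atgl KO/cTg replicate 1, 3, 4 or a wt/cTg pool among replicates 2, 3, 4, no more than 2 genes passed and Hc was not among the calls. It also missed after quantile normalization (difference -1.45) and with no variance trend (-1.47).

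C4b and Cfb, which build the enzymes that cleave C3 and C5, did not share the lower level of Hc. C4b, the fourth component, read 11.39, 11.10, 10.93 and 11.31 in Atgl KO/cTg and 11.11, 10.91, 10.79 and 11.00 in wt/cTg. The ranges overlapped, and the difference was 0.23 (SE 0.10, limma 95% interval for this gene alone 0.00 to 0.46). It ran from 0.16 without Atgl KO/cTg replicate 1 to 0.31 without Atgl KO/cTg replicate 3. C4a, its near-identical copy, read 3.30 to 4.12. Whether probes read both genes was not tested, and the C4b value is uncertain to that extent. Cfb, factor B, read 11.24, 11.42, 10.82 and 11.16 in Atgl KO/cTg and 11.66, 10.81, 10.87 and 10.67 in wt/cTg. Its highest and its lowest pool were both wt/cTg, and the difference was 0.16 (SE 0.19, 95% interval -0.27 to 0.59). It was 0.38 without wt/cTg replicate 1, the highest pool, and 0.05 without wt/cTg replicate 4, the lowest.

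The regulators gave small differences. Cd55, decay-accelerating factor, which breaks up the C3- and C5-cleaving enzymes on cell surfaces, read 8.12, 8.25, 7.93 and 8.56 in Atgl KO/cTg and 8.12, 8.07, 8.03 and 8.06 in wt/cTg. The wt/cTg pools were tight (SD 0.04) and lay inside the Atgl KO/cTg range. The difference was 0.14 (SE 0.12, 95% interval -0.12 to 0.41), with 0.03 without Atgl KO/cTg replicate 4 and 0.24 without Atgl KO/cTg replicate 3. Cfi, factor I, the protease that inactivates C3b and C4b, read 4.58, 4.21, 4.12 and 4.36 in Atgl KO/cTg and 4.19, 3.77, 4.78 and 4.16 in wt/cTg. These values lie below the median probe set on every array, and no fit was made for Cfi. The difference of its means was 0.09 and turned to -0.06 without wt/cTg replicate 2, with 0.28 lacking wt/cTg replicate 3.

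The receptors of the 2 released peptides lay slightly below 0. C5ar1, the C5a receptor of neutrophils and macrophages, read 6.80, 7.43, 7.22 and 7.20 in Atgl KO/cTg and 7.46, 7.26, 7.29 and 7.23 in wt/cTg. The difference was -0.15 (SE 0.13, 95% interval -0.44 to 0.14). C3ar1, the C3a receptor, read 7.17, 7.93, 7.97 and 7.63 in Atgl KO/cTg and 8.02, 8.02, 8.02 and 7.60 in wt/cTg. The ranges overlapped, and the difference was -0.24 (SE 0.17, 95% interval -0.62 to 0.14). Atgl KO/cTg replicate 1 was the lowest pool for both receptors, and without it the differences were -0.03 and -0.07. Their lowest values with 1 pool left out were -0.24 for C5ar1 (Atgl KO/cTg replicate 2) and -0.34 for C3ar1 (Atgl KO/cTg replicate 3).

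Set side by side, the difference of Hc minus that of the lowest of the 5 other tested members was -1.23 (their range -0.24 to 0.23, median 0.14). The limma 95% interval of Hc alone was -1.86 to -1.08, given as a description. The pools show the same picture. Relative to each gene's wt/cTg mean, Hc lay at -1.50, -1.23, -1.62 and -1.53 in Atgl KO/cTg replicates 1 to 4. The medians of the 5 other members in those pools were 0.05, 0.15, -0.09 and 0.16. The lowest value of any of the 5 was -0.75, for C3ar1 in Atgl KO/cTg replicate 1. The direction of Hc was opposite to that of C4b, Cfb and Cd55 in the means.

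The other complement genes came from a list by role that was not picked for how its genes moved. Earlier results of these data were known when the list was written. Of 50 listed, 44 were measured and 25 passed the level filter. None passed the limma threshold (0 of 25, against 0.0991% of all genes). An unadjusted limma p under 0.05 was found for 2 of the 25, beside 1043 of all 13112 genes tested. Of the 25, 11 lay above 0 and 14 below (10 and 15 after median centring), with a median of -0.11 beside -0.01 for all genes tested. Groups did not overlap for 1 of 25 (4%), near the 4.35% of all genes. Their differences ran from -0.36 to 0.63, so that of Hc lay outside the whole range.

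**Figure D2:**
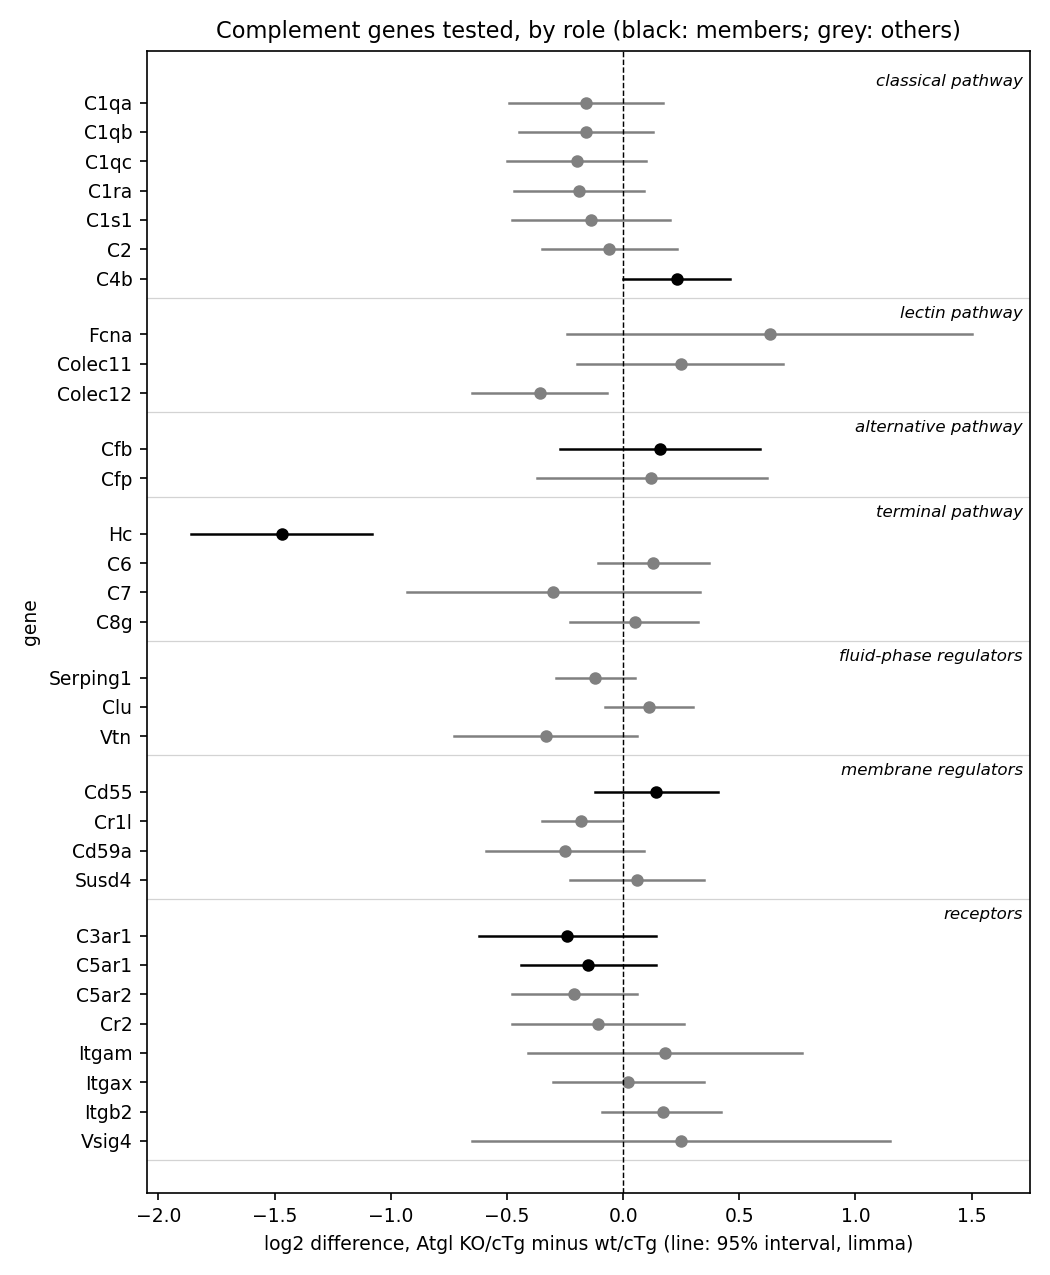
Log2 difference, Atgl KO/cTg minus wt/cTg (horizontal axis), for every complement gene that passed the level filter, by role, with the limma 95% interval of each gene alone. Members are black and other genes grey. Hc lies at -1.47, and all other genes lie between -0.36 and 0.63.

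Within the terminal pathway, which Hc opens, the later components did not share its lower level. C6, which binds C5b first, read 8.0, 7.69, 7.80 and 7.83 in Atgl KO/cTg and 7.90, 7.72, 7.71 and 7.47 in wt/cTg, a difference of 0.13 (limma adjusted p = 0.818). C7, which anchors the complex in the membrane, read 8.71, 8.48, 9.20 and 9.17 against 9.46, 8.63, 8.65 and 10.01. Its ranges overlapped, and its difference of -0.30 (limma adjusted p = 0.842) was -0.02 without wt/cTg replicate 4, its highest pool, and -0.48 when wt/cTg replicate 2 was left out. C8g, a chain of C8, read 5.48, 5.22, 5.34 and 5.44 against 5.60, 5.17, 5.25 and 5.28 (0.05, limma adjusted p = 0.961), and turned to -0.01 without wt/cTg replicate 2. The C6 difference was 0.05 without wt/cTg replicate 4. C8a, C8b and C9 lay below the level filter, at means of 3.76, 5.11 and 3.59.

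In the classical pathway all 6 tested genes outside the members lay below 0, with a median of -0.16, and none passed. They also lay below 0 after quantile normalization and median centring. The member C4b, which belongs to this pathway too, lay above 0, at 0.23. C1qa, C1qb and C1qc, the 3 chains of C1q and macrophage products in most tissues, lay at -0.16, -0.16 and -0.20, with limma adjusted p of 0.835, 0.804 and 0.766. Each of the 3 was lowest in Atgl KO/cTg replicate 1 (9.66, 9.74 and 8.03), the pool lowest for both receptors, and highest in wt/cTg replicate 3 (10.52, 10.37 and 8.82). With the last of these pools left out, the C1qb and C1qc differences were -0.06 and -0.07. C1ra, a C1 protease, read 7.83, 7.75, 7.79 and 8.33 in Atgl KO/cTg and 8.24, 8.07, 8.07 and 8.07 in wt/cTg, a difference of -0.19 (limma adjusted p = 0.766). It was -0.33 without Atgl KO/cTg replicate 4. C1s1 and C2, the next proteases, lay at -0.14 and -0.06.

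Among recognition proteins of the lectin pathway, Fcna, ficolin A, had the largest difference of the 25 (0.63, SE 0.40, limma adjusted p = 0.753). It read 7.59, 9.45, 7.60 and 8.30 in Atgl KO/cTg and 7.70, 7.88, 8.10 and 6.75 in wt/cTg, and was 0.23 without Atgl KO/cTg replicate 2, the highest pool, and 0.84 without Atgl KO/cTg replicate 1. The same pool was highest for Cfp, properdin, which steadies the alternative pathway enzyme, at 9.53 against 8.45, 8.37 and 8.55 in the other Atgl KO/cTg pools and 8.68, 8.60, 8.83 and 8.29 in wt/cTg. The Cfp difference of 0.12 (limma adjusted p = 0.937) was -0.14 without that pool. Colec12, a scavenger collectin, read 8.62, 8.61, 9.02 and 9.14 in Atgl KO/cTg and 9.34, 9.13, 9.01 and 9.34 in wt/cTg (-0.36, SE 0.13, limma adjusted p = 0.524). Colec11, a soluble collectin, read 6.53, 6.13, 6.17 and 6.95 against 6.0, 6.62, 6.22 and 5.96. Its difference of 0.25 (limma adjusted p = 0.805) was 0.08 without Atgl KO/cTg replicate 4 and 0.39 without wt/cTg replicate 2. Mbl1, Mbl2, Masp1, Fcnb and Colec10 lay below the filter.

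Other regulators had no called gene. Cr1l, the rodent surface regulator Crry, was the 1 gene of the 25 whose groups did not overlap, at 9.20, 9.08, 8.97 and 9.17 in Atgl KO/cTg and 9.21, 9.39, 9.24 and 9.30 in wt/cTg. Only 0.18 log2 units lay between the means (limma adjusted p = 0.6). Cd59a, which blocks the last step of the attack complex, read 6.06, 5.56, 5.63 and 5.96 against 5.98, 6.39, 5.84 and 6.02 (-0.25, limma adjusted p = 0.742). Susd4, a membrane protein with complement control repeats, read 5.68, 5.89, 5.61 and 5.84 against 5.73, 5.45, 5.62 and 5.98 (0.06, limma adjusted p = 0.948). The ranges of both overlapped, and Susd4 turned to -0.02 without wt/cTg replicate 2. Among the secreted regulators, Serping1, the C1 inhibitor, read 11.43, 11.19, 11.32 and 11.47 against 11.50, 11.51, 11.31 and 11.57 (-0.12, limma adjusted p = 0.765). Clu, clusterin, which binds the forming attack complex, read 10.59, 10.68, 10.37 and 10.62 against 10.65, 10.46, 10.36 and 10.36 (0.11, limma adjusted p = 0.804). Vtn, vitronectin, which binds the same complex, read 5.78, 5.32, 6.30 and 5.72 against 6.13, 6.03, 6.02 and 6.27. Its difference of -0.33 (limma adjusted p = 0.693) was -0.18 without Atgl KO/cTg replicate 2 and -0.50 without Atgl KO/cTg replicate 3. C4bp, Cpn1, Cpn2 and Cfhr2 lay below the filter.

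The remaining receptors also gave no call. C5ar2, a further C5a receptor, read 5.24, 5.09, 5.41 and 5.23 in Atgl KO/cTg and 5.26, 5.65, 5.35 and 5.55 in wt/cTg (-0.21, limma adjusted p = 0.728). Cr2, the B cell receptor of C3 fragments, lay at -0.11. Itgam, Itgax and Itgb2, the chains of complement receptors 3 and 4, lay at 0.18, 0.02 and 0.17, and Itgax turned below 0 after median centring. Vsig4, the macrophage receptor for C3b, was spread widely, at 6.09, 7.79, 5.67 and 6.85 in Atgl KO/cTg and 6.85, 5.74, 6.81 and 5.99 in wt/cTg. Its difference of 0.25 (limma adjusted p = 0.927) turned to -0.15 without Atgl KO/cTg replicate 2. Itgam, at 8.28, 9.39, 8.31 and 7.99 against 8.69, 8.28, 8.42 and 7.85 (limma adjusted p = 0.914), turned too, to -0.12 without that pool.

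The profile of Hc over the pools was closest to genes outside the cascade. Likeness was the root mean square, over the 8 pools, of the gap between a gene and Hc after each was centred on its own mean, in log2 units. The 8 nearest genes were Lamp3 (0.13), Egfl6 (0.16), Lgi3 (0.19), Bex4 (0.20), Bex2 (0.23), Slc34a2 (0.24), Mlc1 (0.25) and Etv5 (0.25), against a median distance of 0.80 over 13111 genes. Lamp3, a membrane protein of lamellar bodies, read 8.91, 9.63, 8.85 and 9.10 in Atgl KO/cTg and 10.12, 10.87, 10.61 and 11.00 in wt/cTg, a difference of -1.53. Slc34a2, the phosphate transporter of type 2 cells, lay at -1.01 and Etv5, a transcription factor of these cells, at -1.01. The distances of C3ar1, C5ar1, Cd55, C4b and Cfb were 0.74, 0.75, 0.87, 0.92 and 0.97. With the mean absolute gap 6 of the 8 genes stayed among the nearest 8, and with quantile normalization 7 did. Since the genotype difference is part of the profile, this is a description.

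**Figure D3:**
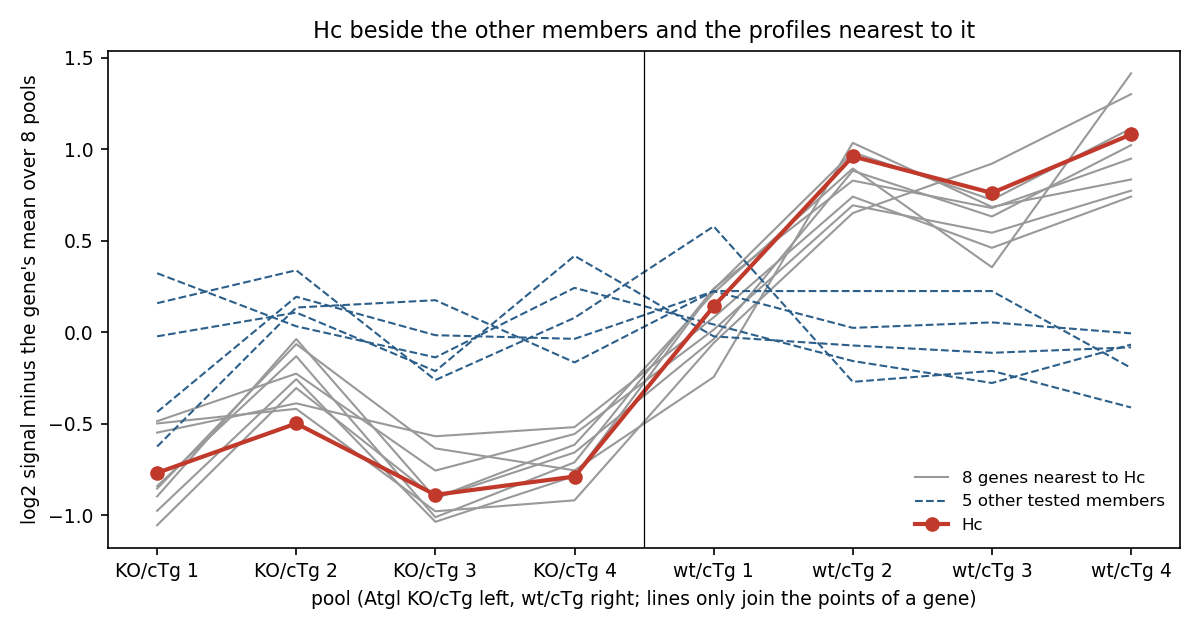
Log2 signal of each gene minus its own mean over the 8 pools (vertical axis), by pool, for Hc (red), the 8 nearest genes (grey) and the 5 other tested members (dashed blue). Hc and the grey lines are low in the Atgl KO/cTg pools and lower in wt/cTg replicate 1 than in the other wt/cTg pools, and the blue lines show no such step between the genotypes.

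Alveolar type 2 markers moved with Hc. All 12 listed markers were measured and lay below 0, also after quantile normalization and median centring, with a median of -0.38 (Sftpc -0.41, Sftpb -0.21, Sftpa1 -0.13), from -1.53 for Lamp3 to -0.06 for Lyz2. Of the 12, 4 passed the limma threshold, against 0.0991% of all genes. These were Sftpc, and Lamp3, Slc34a2 and Etv5 from the 8 genes nearest to Hc. The list was chosen with these results known, so nothing is read from that count. The mean level of the 12 markers was 10.30, 10.46, 10.27 and 10.39 in Atgl KO/cTg and 10.68, 11.06, 10.90 and 11.12 in wt/cTg, so these groups did not overlap either. Within wt/cTg, the pools had the same order for Hc and for the marker level, lowest in replicate 1 and highest in replicate 4. Within Atgl KO/cTg, replicate 3 was lowest and replicate 2 highest for both. The order of replicates 1 and 4 differed, at 8.37 and 8.35 for Hc and 10.30 and 10.39 for the marker level. The marker level includes Lamp3, Slc34a2 and Etv5, which are among the 8 genes nearest to Hc, so the shared order is not a separate result. Sftpc, Sftpb and Sftpa1, outside those 8, were each lowest in replicate 1 and highest in replicate 4 of wt/cTg. Within Atgl KO/cTg, Sftpc was highest in replicate 1, and Sftpb and Sftpa1 in replicate 4. The lowest of the 12, Il33, read 7.80 to 8.46. The part of type 2 cell content in the Hc difference was not tested.

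**Figure D4:**
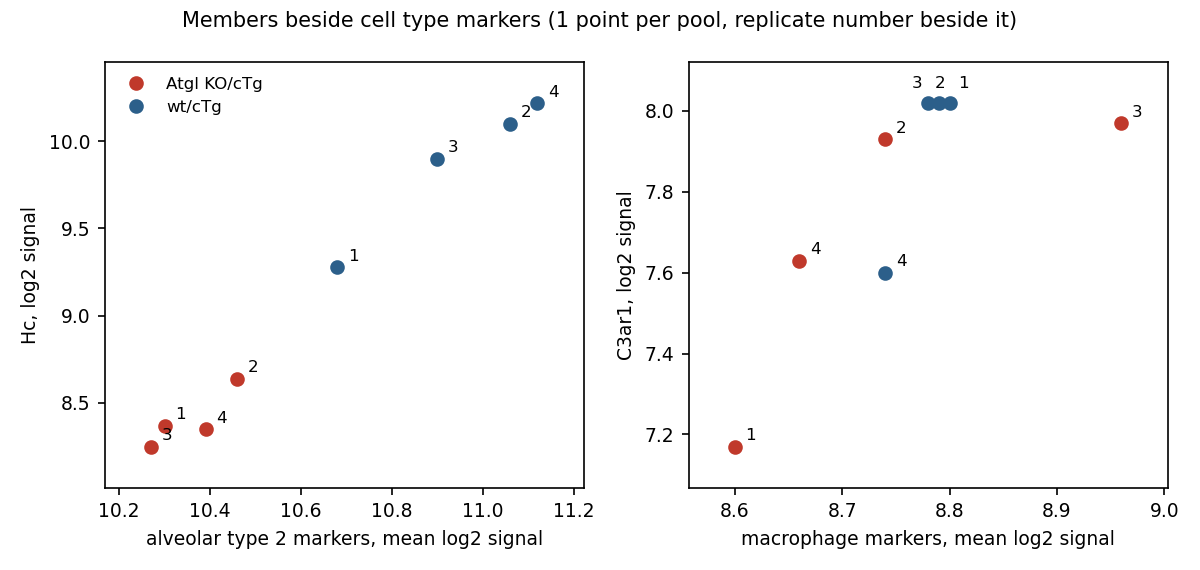
Left, Hc log2 signal (vertical) against the mean log2 signal of 12 alveolar type 2 markers (horizontal), and right, C3ar1 against 8 macrophage markers, 1 point per pool with its replicate number. Both Hc and the type 2 level are lower in all 4 Atgl KO/cTg pools, and Atgl KO/cTg replicate 1 is lowest for C3ar1 and for the macrophage level.

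The mean marker levels of the cells that carry the receptors or make other components overlapped between the groups. The neutrophil median, 0.52, was larger in size than the -0.38 of the type 2 markers. The mean of 8 of 9 macrophage markers (Marco 0.00, Chil3 0.25, Mrc1 -0.10, lowest Adgre1 at -0.26) was 8.60 to 8.96 in Atgl KO/cTg and 8.74 to 8.80 in wt/cTg, with a median difference of -0.09 (2 genes above 0 and 6 below, or 3 and 5 after quantile normalization), and -0.02 without Atgl KO/cTg replicate 1. It was lowest in Atgl KO/cTg replicate 1, the pool lowest for C5ar1, C3ar1 and the C1q chains. The 8 tested of 11 neutrophil markers (S100a8 0.49, S100a9 0.56, Mmp8 0.87, lowest Mmp9 at 0.04) all lay above 0, with a median of 0.52 (0.40 to 0.76 with 1 pool left out) and levels of 8.0 to 8.95 against 7.78 to 8.47, while C5ar1, which neutrophils carry, lay at -0.15. The 3 others, Ly6g, Camp and Ngp, lay below the filter. None of these markers passed the limma threshold, and their part in the receptor values was not tested.

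The 8 fibroblast markers, cells that make C7 and C1 proteases, all lay below 0 (Col1a1 -0.09, Col1a2 -0.36, Col3a1 -0.27, lowest Tcf21 at -1.0), with a median of -0.34 and levels of 8.44 to 9.04 against 8.87 to 9.32. The 5 mesothelial markers lay between 0.06 (Msln) and 0.14 (Wt1), with Upk3b at 0.10, a median of 0.11 and levels of 9.31 to 9.76 against 9.23 to 9.75. The 6 ciliated markers had a median of 0.21 (Foxj1 0.35, Tppp3 0.23, Ccdc153 0.19, lowest Dynlrb2 at 0.04; levels 9.08 to 9.44 against 8.65 to 9.35). The 6 club markers had a median of 0.06 (Scgb1a1 -0.07, Cyp2f2 0.06, Scgb3a2 -0.09, highest Scgb3a1 at 0.16; levels 12.33 to 12.51 against 12.39 to 12.44). The 4 measured of 5 B cell markers had a median of -0.06 (Cd79a -0.08, Ms4a1 -0.14, highest Pax5 at 0.10; levels 8.18 to 8.31 against 8.11 to 8.55). None of these passed the limma threshold. Groups did not overlap for 1 of the 8 fibroblast markers, Tcf21 (12.5%), and 1 of the 6 club markers, Scgb3a1 (16.7%), beside 4.35% of all genes. They overlapped for all ciliated, mesothelial and B cell markers. The lists were chosen with earlier results known, so nothing is read from these counts. With 1 pool left out in turn, the medians ran from 0.06 (without wt/cTg replicate 1) to 0.31 for ciliated markers and from 0.01 (without wt/cTg replicate 3) to 0.21 for mesothelial markers. They ran from -0.51 to -0.25 for fibroblast, from 0.04 to 0.10 for club and from -0.13 to 0.04 (without wt/cTg replicate 1) for B cell markers.

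Hepatocyte markers were low. Alb read 4.11 to 4.34 in all 8 pools, and Ttr and Fga also lay below the level filter. The 3 tested markers (Apoa1 0.26, Apoa2 0.03, Ahsg -0.03) had a median of 0.03 (2 above 0, or 1 after median centring) and levels of 5.32 to 5.81 against 5.35 to 5.67. Adipoq, which marks fat cells, read 4.09 to 4.29, and of 5 adipocyte markers 2 were tested (Plin1 0.14, Cidec -0.17; levels 5.47 to 5.79 against 5.39 to 6.09, median -0.02). With 1 pool left out in turn, the medians of these lists changed sign, from -0.04 to 0.18 for hepatocyte and from -0.12 to 0.12 for adipocyte markers. Values this low have no measured background beside them.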

How the data were processed

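The samples are 8 arrays, 4 per genotype, each of a pool of mice. A miRNeasy Micro kit, a NuGEN Pico amplification kit and a biotin label were used, per the labels' protocols. The authors deposited log2 signals, 1 per probe set and array, used as deposited. The software, background correction and normalization behind them were not given in the sources used here. Signal over background was not tested, for want of a measured background beside the values.

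Of 41345 probe sets, 23521 had 1 gene symbol, 1814 several and 16010 none. This gave 22180 genes, of which 13112 had a mean above 5.18, the median of all probe sets, and were tested. The fit of genotype used limma 3.58.1 (R 4.3.3; lmFit, then eBayes with a variance trend), two-sided, with Benjamini-Hochberg adjustment over all 13112 genes and a threshold of 0.05. The fit was tried on simulated data with independent noise for each gene and pool. That does not bear on how steady the calls in these pools are. P-values set the genotype difference against the spread between pools, moderated over all genes tested. The spread between mice within a pool was not measured. Precision is limited by the number of arrays.

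The members, gene lists and tests were chosen with earlier results of these data known. The genes named were all members, every called complement gene, the 3 tested genes of each role with the largest difference, the 8 profiles nearest to Hc, and of each marker list the first 3 genes and the ends of its range. Alternatives covered the level filter, variance trend, normalization, array weights, probe set choice, age, sex-linked transcripts, each array left out and the threshold. Sequences came from RefSeq tables of GRCm38.p6. Figures were drawn with matplotlib 3.10.9.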

Additional observations from a re-analysis of the deposited data

Results flagged for a closer look

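Each of the 58 groups of 4 pools (29 named genes, 2 genotypes) was examined for a pool far from the other 3, and 5 stood apart, where chance gives about 1 in 20. C3ar1 read 7.60 in wt/cTg replicate 4, below 8.02 in each of the other 3 wt/cTg pools. C1ra read 8.33 in Atgl KO/cTg replicate 4, above 7.75 to 7.83 in the other 3, and 8.24 in wt/cTg replicate 1, above 8.07 in the other 3. C1qb read 10.23 in Atgl KO/cTg replicate 2, above 9.74 to 9.81. Cfp read 9.53 in the same pool, above 8.37 to 8.55.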

How the results depend on the processing

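The number of called genes was 13 (2 higher, 11 lower). It was 7 without a level filter and with age as a covariate, 1 after quantile normalization and without the variance trend, 23 with array weights, 20 at an adjusted p under 0.1 and 1 to 25 when single arrays were left out. Median centring called 19 genes, 1 higher and 18 lower. The count of members called was 1 (Hc), 0 after quantile normalization and without the variance trend, and 0 to 1 when single arrays were left out, with Hc called in 2 of those 8 fits. In the other 7 settings of the fit Hc was called. The Hc difference ran from -1.67 to -1.35 when single arrays were left out and from -1.57 to -1.42 in the other settings. None of the 25 other complement genes was called in any setting run. The cause of the lost calls was not tested. No paired analysis was made because the labels do not state which pools form each of the 4 sets of the design text. Sample titles hold number ranges, some of which run on from one genotype to the other, but no title states a set. The replicate numbers used here follow accession order.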

Other observations

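Acute-phase proteins, which liver and airway epithelium secrete in inflammation together with complement, mostly lay above 0, apart from Itih4. Of the 6 tested genes 5 lay above 0 and 1 below, also after quantile normalization and median centring, with a median of 0.31. Hp, haptoglobin, read 12.49, 12.50, 12.39 and 12.46 in Atgl KO/cTg and 12.37, 12.14, 12.34 and 12.26 in wt/cTg, and its groups did not overlap, but it did not pass (0.18, limma adjusted p = 0.485). Cp, ceruloplasmin, lay at 0.39 (10.44 to 10.73 against 9.84 to 10.56, limma adjusted p = 0.494) and Lcn2, lipocalin 2, at 0.44 (10.06 to 11.03 against 9.39 to 10.57, 0.7). Lcn2 was 0.24 without Atgl KO/cTg replicate 2. Itih4 fell, from 8.10 to 8.30 in wt/cTg to 6.65 to 7.63 in Atgl KO/cTg (-1.15, SE 0.18, limma adjusted p = 0.0477), and this was known when the list was written. Of the 8 fits that left out 1 pool, Itih4 passed only in the 1 without Atgl KO/cTg replicate 2, with limma adjusted p of 0.076 to 0.226 in the others. It also missed with no level filter (0.0699), with no variance trend (0.0878), after quantile normalization (0.0813), with age as a covariate (0.0544) and with sex-linked transcripts as a covariate (0.0748), all limma adjusted p. Saa2, Orm2, Crp, Apcs and Ptx3 lay below the level filter.

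The relatives of C5 listed from the thioester protein family, outside the members, could not be compared with Hc. A2m, Pzp, Mug1, Mug2 and Cd109, the 5 of 6 measured, all lay below the level filter, at means of 2.47 (Mug2) to 4.24 (Cd109).

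Genes beside Hc on its chromosome, 4 measured protein-coding genes on each side in RefSeq's order, did not share its difference. These neighbours were looked up after the values were seen. Of the 8, 5 passed the level filter, with differences of -0.35 (Gsn) to 0.04 (Traf1), and none passed the limma threshold. Traf1, the nearest tested gene on one side, read 7.34 to 7.52 in Atgl KO/cTg and 7.03 to 7.62 in wt/cTg, and Cntrl, the nearest on the other, 6.82 to 7.07 against 6.75 to 6.98.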
